A study of Mus musculus with 9 samples.

Results

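The genes described here make ribosomes: they transcribe ribosomal RNA (rRNA) with RNA polymerase I (Pol I), modify and cut it, and assemble it with proteins in the nucleolus. The set holds 45 genes, taken by symbol from the 54532 genes of the deposited table. The 9 RNA-seq libraries come from 4T1, an established mouse mammary tumour line that the study takes as triple-negative breast cancer cells, with 3 libraries in each of 3 groups. The Au_TCPP group received Au/Cu-TCPP(Fe)-PEG, whose cells the labels describe by a glucose-like oxidase activity and by consumed glutathione. The Cu_TCPP group received Cu-TCPP(Fe)-PEG and is described by consumed glutathione alone, and the Control group received medium. All groups were 4T1 cells grown in high glucose DMEM with serum and sampled for a 24 h treatment. The labels give no doses, so it is not known whether they were matched between the materials. Whether replicates were separate cultures is not stated, so that p-values reflect the spread among these samples alone, which may be technical.

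Pol I reads the repeated rRNA genes, where the factors UBF and SL1 and the initiation factor encoded by Rrn3 recruit it. The long transcript is then modified by small nucleolar ribonucleoproteins (snoRNPs), which carry small nucleolar RNAs (snoRNAs) as guides. Box C/D snoRNPs methylate the RNA and box H/ACA snoRNPs turn uridine into pseudouridine. Large complexes of assembly factors fold and cut the transcript into the small and the large ribosomal subunit. In growing tumour cells the pathway is known to be active and to respond to the transcription factor MYC. The libraries hold polyadenylated RNA, so the messages of these factors were measured and rRNA itself was not.

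Promoter sequence was available for 38 of the 45 genes in RefSeq (GRCm38.p6), as the 250 bases before and 50 after each annotated start. Motifs were searched on both strands, and a match is a description of these letters and not a site. A gene with several annotated starts has several windows and was counted once if any of them matched. The E-box CACGTG, the motif bound by MYC, was found in 7 of the 38 genes, or 18.4%. The shares were 11.9% of the 9636 genes tested with a promoter and 8.09% of all 27025 genes with one. CCGGAAG, an ETS-type motif whose reverse is CTTCCGG, was in 13 of 38, or 34.2%, against 20.9% and 9.93%. The NRF1-type palindrome, GCGCA followed by its reverse complement, was in 1 gene, or 2.63%, against 2.40% and 1.07%. The palindrome of TCTCG and its reverse complement was in 0, against 1.15% and 0.525%. The upstream 250 bases of 4 genes are shown with both motifs in capitals. Rrn3 and Nop2 hold both kinds, Nolc1 rose with both materials, and Polr1c holds CCGGAAG and did not rise with either.
Rrn3, chr16:13780449-13780698, plus strand: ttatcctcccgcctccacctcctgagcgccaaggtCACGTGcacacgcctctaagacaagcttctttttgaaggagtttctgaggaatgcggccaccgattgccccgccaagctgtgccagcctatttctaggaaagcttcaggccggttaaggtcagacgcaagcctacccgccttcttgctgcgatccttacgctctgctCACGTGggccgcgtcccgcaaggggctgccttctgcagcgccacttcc
Nop2, chr6:125131633-125131882, plus strand: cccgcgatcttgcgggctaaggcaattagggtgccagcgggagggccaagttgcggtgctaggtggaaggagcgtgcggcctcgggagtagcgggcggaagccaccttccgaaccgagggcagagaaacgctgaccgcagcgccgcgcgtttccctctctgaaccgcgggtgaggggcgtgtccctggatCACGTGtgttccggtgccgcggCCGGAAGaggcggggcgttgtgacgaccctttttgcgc
Nolc1, chr19:46075597-46075846, plus strand: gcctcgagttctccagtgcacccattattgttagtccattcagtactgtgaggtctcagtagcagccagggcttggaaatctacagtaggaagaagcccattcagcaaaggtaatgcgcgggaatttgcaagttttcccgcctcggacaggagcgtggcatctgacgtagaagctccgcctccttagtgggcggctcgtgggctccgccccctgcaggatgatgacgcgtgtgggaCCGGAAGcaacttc
Polr1c, chr17:46248046-46248295, minus strand: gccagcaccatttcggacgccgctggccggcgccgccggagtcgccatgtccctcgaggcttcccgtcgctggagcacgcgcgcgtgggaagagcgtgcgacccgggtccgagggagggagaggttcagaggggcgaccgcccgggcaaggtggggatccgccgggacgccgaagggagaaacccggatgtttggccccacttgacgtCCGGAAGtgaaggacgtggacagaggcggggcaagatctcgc
In Rrn3 the E-box stands at positions -215 and -48 from the start, and a CTTCCGG that begins at -5 runs past the printed end and is left in lower case. In Nop2 the E-box stands at -60 and CCGGAAG at -38. CCGGAAG stands at -14 in Nolc1 and at -42 in Polr1c.

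Total counts lay between 15477324 and 17494776 reads per library, and 13915 genes had enough counts to be tested. Of the 45 genes, 44 were tested; Wdr74, a large-subunit factor, had 3 reads over all libraries and was not. Levels are given as CPM unless FPKM, which also divide by gene length, are named. CPM here are the deposited counts scaled to an effective library size, the library total multiplied by a TMM factor for composition. The factors were 0.793 to 0.889 in Au_TCPP, 1.07 to 1.09 in Cu_TCPP and 1.11 to 1.12 in Control, so that relative to Control the Au_TCPP levels stand higher in CPM than as shares of the library totals. Where a value is given with library totals alone, these factors were left out. The first principal component, with 64.3% of the variance, set the Au_TCPP libraries apart from the others. The share of mitochondrial reads was 2.37% in Au_TCPP 2, against 1.09% to 1.47% in the other libraries. Of 8 epithelial markers 7 passed the filter on low counts. The summed level was 4493 to 5395 CPM in Au_TCPP, 2856 to 3193 in Cu_TCPP and 2949 to 3207 in Control. Single markers went both ways with Cu_TCPP. Krt8 had 1081 to 1237 CPM against 822 to 921 in Control, and Krt18 overlapped. Epcam, Cdh1, Krt19, Krt7 and Cldn4 were lower than in Control without overlap, Cldn4 at 5.7 to 7.8 CPM against 17.5 to 19.7. Of the receptor genes, Pgr was too low to test and Esr1 lay between 4.46 and 11.4 CPM over the libraries. Erbb2 was present in all groups, at 22.2 to 23.4 CPM in Au_TCPP, 60.7 to 71.4 in Cu_TCPP and 57.6 to 62.8 in Control. Macrophage markers, of which 3 of 8 were tested, summed to 79.8 to 98.3 CPM in Au_TCPP, 27.8 to 31.3 in Cu_TCPP and 40.8 to 44.1 in Control, with Adgre1 at 0 in all libraries. Of this sum, Cd68 had 53.3 to 75.2 CPM in Au_TCPP, 9.13 to 13.3 in Cu_TCPP and 25.2 to 29.1 in Control. Ptprc, Csf1r, Itgam and Lyz2 were too low to test. Lymphocyte and endothelial markers stayed below 1 CPM in sum. Fibroblast markers summed to 26.7 to 31.7 CPM in Au_TCPP, 16.3 to 19.7 in Cu_TCPP and 35.2 to 40.6 in Control, with Col3a1, Pdgfrb and Lum at 0. Pdgfra held nearly all of it, at 26.1 to 31.4, 15.5 to 18.8 and 33.1 to 37.9 CPM in the same order. The part of these differences in the results below was not tested.

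With Cu_TCPP, 38 of the 44 genes rose against Control, 0 fell and 6 did not pass. Over all genes tested 40.4% were called, 19.2% higher and 21.2% lower. The median log2 fold change of the 44 genes was 0.79, against -0.01 over all genes, and single values ran between -0.17 for Polr1c and 1.39 for Bysl. A rise of at least 2-fold was found in 9 of them and a fall of that size in 0, where 1.56% and 6.68% of all genes changed as much. The lowest Cu_TCPP library lay above the highest Control library for 41 genes, and for 0 genes the order was the opposite, where 29.4% and 30.0% of all genes did so. All 44 genes tested passed the filter on low counts in a table where each has at least 11.1 CPM in every library, so none entered through 1 group alone.

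With Au_TCPP, 31 genes rose against Control, 8 fell and 5 did not pass, where 69.1% of all genes were called, 34.4% higher and 34.7% lower. The median log2 fold change was 0.44, against -0.01 over all genes, with values between -0.97 for Polr1a and 1.79 for Nop58. A rise of at least 2-fold was found in 9 genes and a fall of that size in 0, where 13.6% and 15.2% of all genes changed as much. The libraries did not overlap for 32 genes that were higher and 8 that were lower, where 35.3% and 36.6% of all genes did so. Without Au_TCPP 2, the library with the highest mitochondrial share, 33 rose and 8 fell. With all libraries the 8 genes that fell were Polr1a, Polr1c, Tcof1, Utp20, Heatr1, Rrp12, Rrp1b and Noc2l. The scale bears on these counts: with library totals alone the median of all genes moved to -0.43, all genes split into 2626 higher and 7098 lower, against 4783 and 4828 on the main scale, and 17 members rose and 12 fell. The 4 further members called lower were Polr1b, Ubtf, Bop1 and Pes1, between -0.44 and -0.26. The 14 members that then no longer rose were Rrn3, Nolc1, Npm3, Fbl, Dkc1, Gar1, Nop14, Utp15, Wdr43, Bysl, Nob1, Wdr12, Nop2 and Rrs1, of which Rrn3, Npm3, Nop14, Utp15, Wdr43, Nob1 and Rrs1 stood between -0.16 and -0.02. The median of the members then stood 0.45 above that of all genes, against 0.46 on the main scale, and 35 of the 44 members were above the median of all genes on both scales.

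Set directly against Cu_TCPP, Au_TCPP had 10 members higher, 19 lower and 15 that did not pass, where 65.9% of all genes were called, 34.6% higher and 31.3% lower. The median log2 fold change was -0.14, against 0.04 over all genes, with values between -1.74 for Tcof1 and 1.00 for Nop58. A difference of at least 2-fold was found in 1 gene that was higher and 6 that were lower, where 14.8% and 12.0% of all genes differed as much. The libraries did not overlap for 11 genes that were higher and 21 that were lower, against 34.4% and 32.6% of all genes. With library totals alone the median of all genes moved to -0.33, all genes split into 2830 higher and 6526 lower against 4814 and 4362 on the main scale, and 5 members were higher and 31 lower. Of the 10 members that were higher, Ncl, Nop56, Nob1, Mrto4 and Ebna1bp2 then stood between -0.11 and -0.02 and did not pass. The 12 members called lower on that scale and not on the main scale were Polr1e, Rrn3, Fbl, Gar1, Nop14, Utp15, Wdr43, Rrp9, Pno1, Wdr12, Nop16 and Noc3l, between -0.55 and -0.25. Both comparisons against Control share the same 3 Control libraries, so they are not independent of each other.

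**Figure D1:**
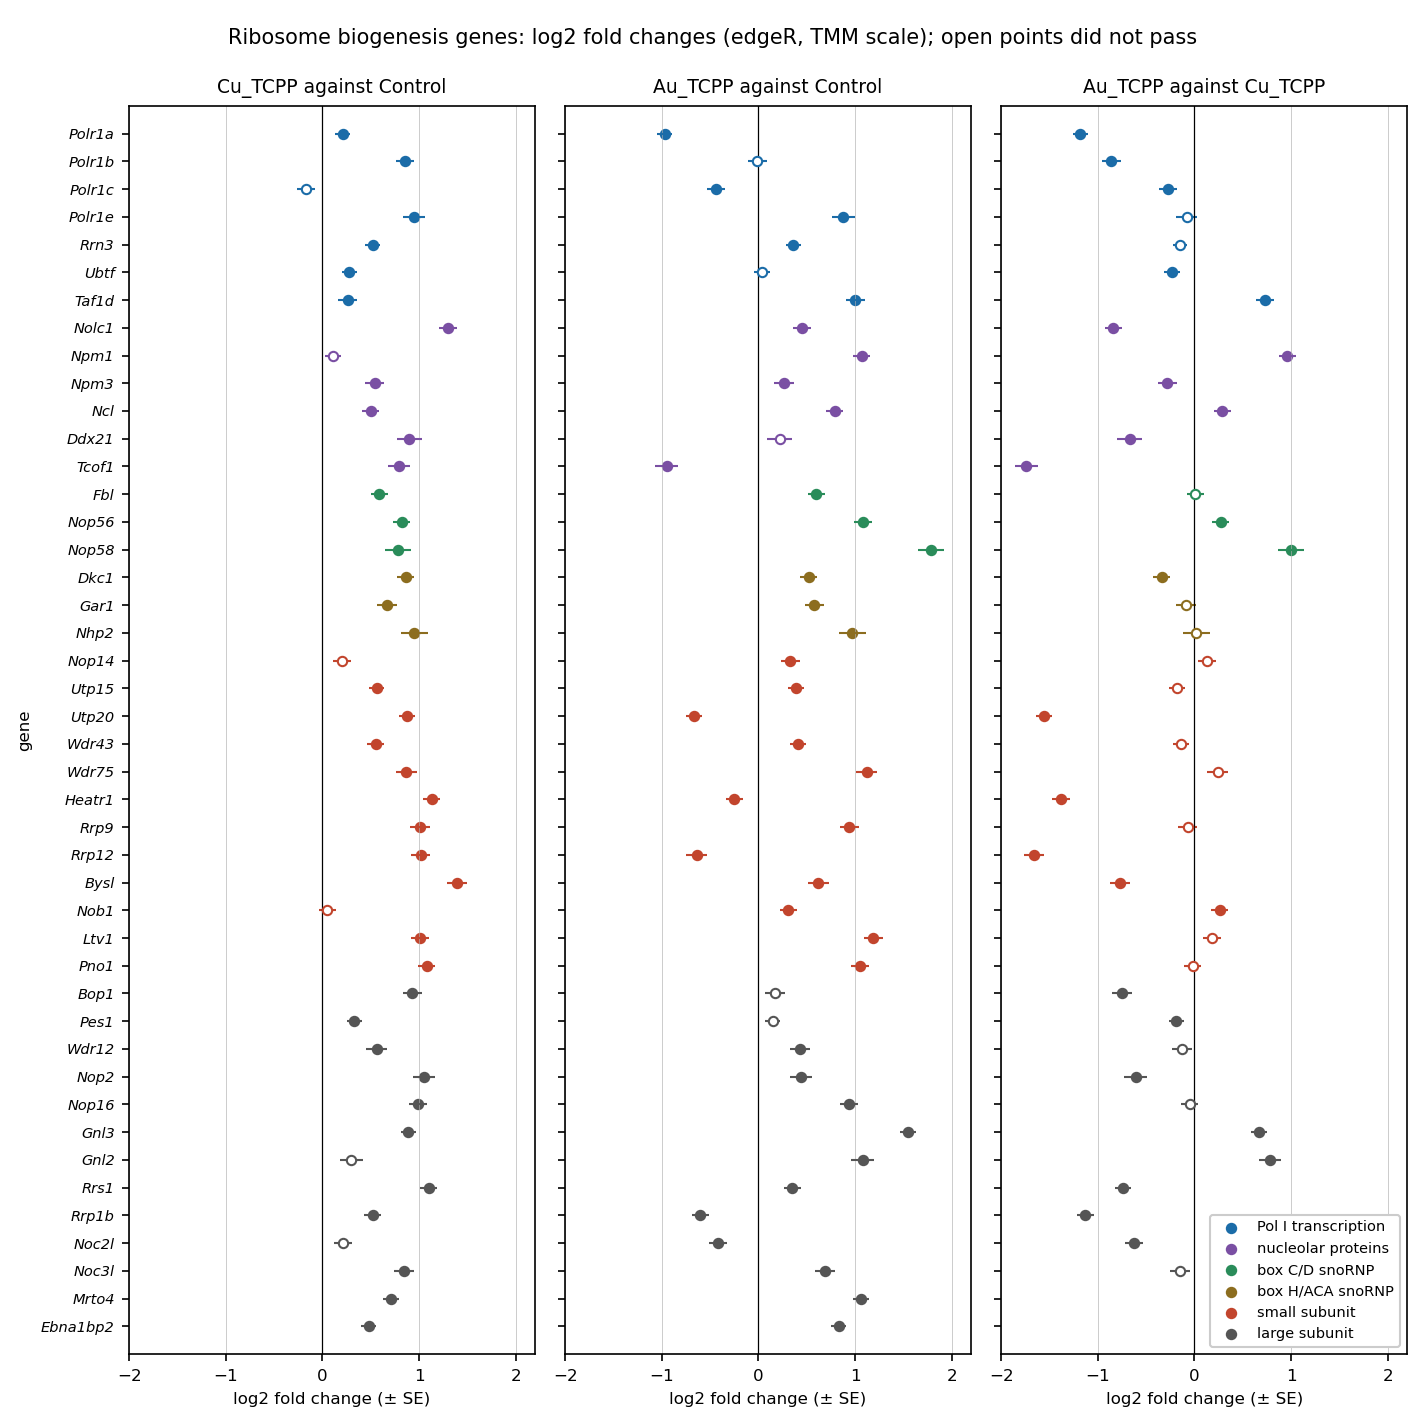
Log2 fold change ± SE (horizontal axis) of each of the 44 genes tested (vertical axis, by role) in the 3 comparisons; filled points passed an adjusted p of 0.05 and open points did not. With Cu_TCPP the values run between -0.17 and 1.39, and with Au_TCPP against Control between -0.97 and 1.79, on both sides of 0 within most roles.

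In CPM, the mean level was highest in Cu_TCPP for 28 of the 44 genes, in Au_TCPP for 15 and in Control for 1. The shares over all genes tested were 26.4%, 42.0% and 31.6%. The mean was lowest in Au_TCPP for 9 genes, in Cu_TCPP for 0 and in Control for 35. Here the shares over all genes were 40.7%, 29.1% and 30.2%. The counts for Au_TCPP depend on the scale. With library totals alone 5 members were called higher and 31 lower with Au_TCPP than with Cu_TCPP. On that scale 17 were called higher and 12 lower than in Control. Together the 45 genes took, as shares of the library totals, 0.712%, 0.735% and 0.751% of the counts in the Au_TCPP libraries, 0.841%, 0.810% and 0.799% in the Cu_TCPP libraries and 0.611%, 0.595% and 0.572% in the Control libraries. In CPM they summed to 8726, 8286 and 9478 in Au_TCPP, 7739, 7524 and 7487 in Cu_TCPP and 5473, 5344 and 5157 in Control, so that the order of Au_TCPP and Cu_TCPP turned with the scale. The abundant genes Npm1 and Ncl weigh heavily in these sums. Without them the share of the totals was 0.351%, 0.361% and 0.375% in Au_TCPP, 0.529%, 0.530% and 0.503% in Cu_TCPP and 0.345%, 0.339% and 0.334% in Control, with Au_TCPP close to Control. In CPM the sum without them was 4300.5, 4066 and 4737 in Au_TCPP, 4867, 4919 and 4714 in Cu_TCPP and 3090.5, 3042 and 3006 in Control, where Au_TCPP stood above Control and overlapped Cu_TCPP. Relative to the Control mean, the median gene stood at 0.46, 0.36 and 0.59 on the log2 scale in the Au_TCPP libraries, at 0.75, 0.79 and 0.75 in the Cu_TCPP libraries and at 0.03, 0.00 and -0.02 in the Control libraries. In such bulk RNA, fewer cells with a message and less message per cell cannot be told apart.

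**Figure D2:**
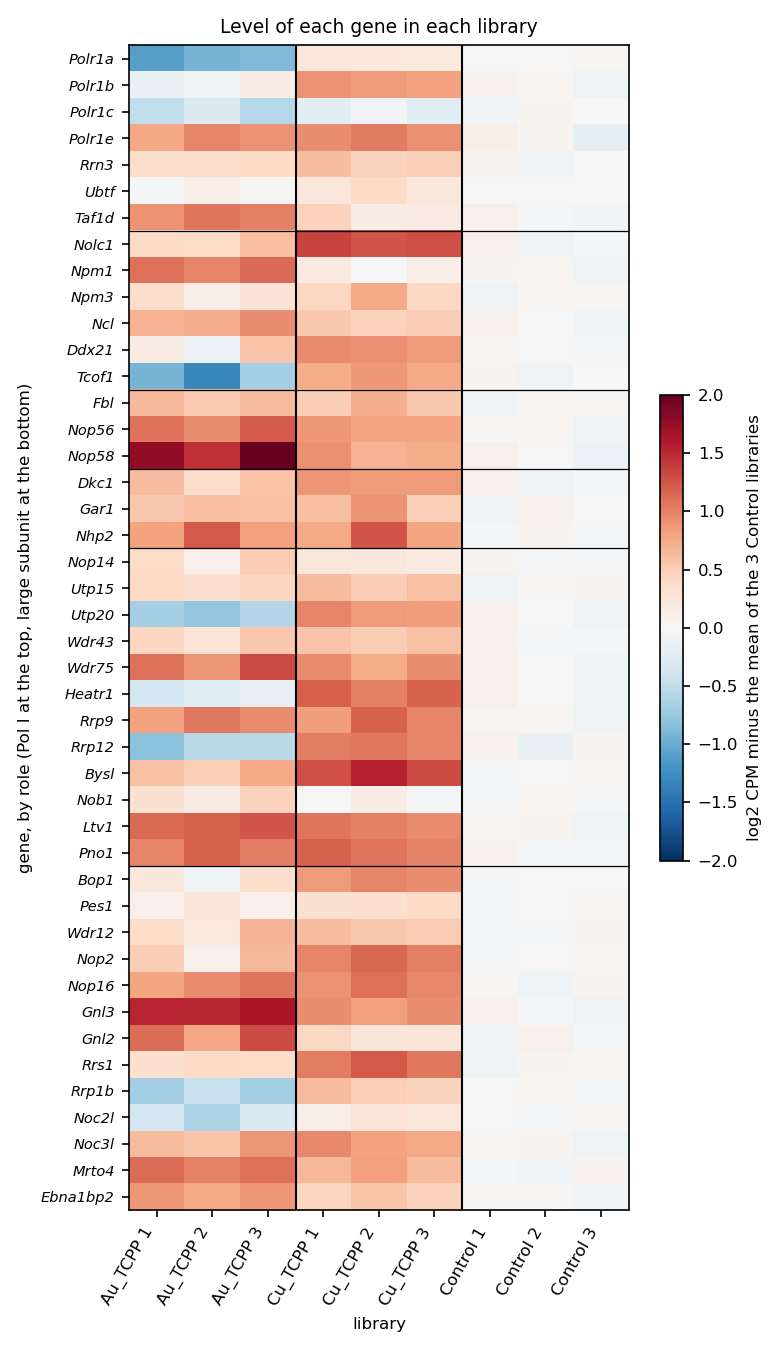
Level of each of the 44 genes (vertical axis, by role) in each of the 9 libraries (horizontal axis), as log2 CPM minus the mean of the 3 Control libraries, in colour. The Cu_TCPP columns are nearly all red, while the Au_TCPP columns hold dark red genes, such as Nop58 and Gnl3, beside blue ones, such as Polr1a and Tcof1.

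For the counts by role below, 19.2% of all genes were called higher and 21.2% lower with Cu_TCPP against Control. With Au_TCPP the shares were 34.4% and 34.7% against Control and 34.6% and 31.3% against Cu_TCPP. Among the 7 genes of Pol I transcription, 6 rose with Cu_TCPP and 1 did not pass, with a median log2 fold change of 0.28. Against Control 3 rose with Au_TCPP, 2 fell and 2 did not pass, and the median was 0.04. Against Cu_TCPP, 1 was higher with Au_TCPP, 4 were lower and 2 did not pass. Polr1a (ENSMUSG00000049553, mm10 chr6:71909053-71984935, plus strand) encodes the largest, catalytic subunit of Pol I. It had 48.2, 53.9 and 55.9 CPM in Au_TCPP, 121, 119 and 118 in Cu_TCPP and 102, 102 and 105 in Control. The 3 groups did not overlap, with Au_TCPP far below the others. Polr1a fell by 0.97 on the log2 scale with Au_TCPP against Control (SE 0.0791, edgeR quasi-likelihood adjusted p = 6.8e-08), a 1.96-fold lower level. It was 2.26-fold lower with Au_TCPP than with Cu_TCPP (log2 fold change -1.18, SE 0.0792, edgeR adjusted p = 1e-08). The rise with Cu_TCPP was small, a log2 fold change of 0.21 (edgeR adjusted p = 0.04), and did not pass without any one of the Control or Cu_TCPP libraries, where the adjusted p lay between 0.058 and 0.11, nor with library totals alone (adjusted p = 0.12).

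Polr1b, the second catalytic subunit, had 30.3, 31.3 and 36.9 CPM in Au_TCPP, 61.6, 59.6 and 58.0 in Cu_TCPP and 34.6, 34.0 and 30.9 in Control. Au_TCPP and Control overlapped and Cu_TCPP stood above both. The rise with Cu_TCPP was 1.80-fold (edgeR adjusted p = 1.1e-05), while the log2 fold change with Au_TCPP against Control was -0.01 with a 95% interval from -0.22 to 0.19. Polr1b was called lower with Au_TCPP under library totals alone, at -0.44 on the log2 scale (adjusted p = 0.00084). Polr1c, a subunit shared by Pol I and Pol III, had 48.1, 55.7 and 45.2 CPM in Au_TCPP, 57.4, 65.0 and 58.0 in Cu_TCPP and 64.7, 69.9 and 67.9 in Control, and was the 1 member whose mean was highest in Control. It fell by 0.44 on the log2 scale with Au_TCPP (edgeR adjusted p = 0.00069) and had a log2 fold change of -0.17 with Cu_TCPP (adjusted p = 0.16).

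Polr1e, which encodes a further Pol I subunit, had 21.5, 25 and 23.5 CPM in Au_TCPP, 24.0, 25.9 and 23.9 in Cu_TCPP and 13.9, 13.1 and 11.1 in Control. Both treated groups stood above Control and overlapped each other. It rose 1.84-fold with Au_TCPP (log2 0.88, SE 0.115, edgeR adjusted p = 8.3e-06) and 1.93-fold with Cu_TCPP (log2 0.95, SE 0.113, adjusted p = 2e-05). Taf1d, a subunit of the promoter factor SL1, had 186, 211 and 202 CPM in Au_TCPP, 138, 111 and 112 in Cu_TCPP and 107, 97.4 and 96.4 in Control. It rose 2.0-fold with Au_TCPP against Control (log2 1.00, SE 0.0986, edgeR adjusted p = 4.6e-07) and was 1.66-fold higher than with Cu_TCPP (adjusted p = 1.1e-05). Its rise with Cu_TCPP (log2 0.26, adjusted p = 0.045) did not pass without any one of 5 of the libraries (adjusted p between 0.05 and 0.21) or with library totals alone (adjusted p = 0.12), and was lowest, at 0.16, without Cu_TCPP 1.

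Rrn3, the initiation factor, rose 1.29-fold with Au_TCPP and 1.43-fold with Cu_TCPP (edgeR adjusted p = 0.00077 and 0.00013). Without correction for composition the Au_TCPP value of Rrn3 was -0.06 on the log2 scale (adjusted p = 0.52). Ubtf, which encodes the rDNA-binding factor UBF, had 135, 152 and 140.4 CPM in Au_TCPP, 162, 181 and 160.4 in Cu_TCPP and 139, 137 and 139 in Control. Its rise with Cu_TCPP was 1.21-fold (adjusted p = 0.015), not passed without Control 2 or Cu_TCPP 2 (adjusted p = 0.056 and 0.05) or with library totals alone (adjusted p = 0.053). Its log2 fold change with Au_TCPP was 0.04 (adjusted p = 0.65), and the call depended on the scale. Ubtf was called lower under library totals alone, at -0.37 (adjusted p = 0.0017), and with gene length removed it was called higher, at 0.31 (adjusted p = 0.0048). With Au_TCPP the polymerase subunits and factors did not share 1 direction. The same held over all genes tested, with 34.4% called higher and 34.7% lower against Control.

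Among the 6 nucleolar phosphoproteins, chaperones and helicases, 5 rose with Cu_TCPP and 1 did not pass, with a median log2 fold change of 0.66. Against Control 4 rose with Au_TCPP, 1 fell and 1 did not pass, the median being 0.36, where 34.4% and 34.7% of all genes were called. Compared with Cu_TCPP 2 were higher and 4 lower, where the shares were 34.6% and 31.3%. Nolc1 (ENSMUSG00000015176, mm10 chr19:46075863-46085530, plus strand) encodes Nopp140, a phosphoprotein that binds snoRNPs. It had 132, 131 and 153 CPM in Au_TCPP, 259, 241 and 247 in Cu_TCPP and 108, 96.4 and 99.1 in Control. The order Cu_TCPP, Au_TCPP, Control held without overlap. Nolc1 rose 2.46-fold with Cu_TCPP (log2 1.30, SE 0.0892, edgeR adjusted p = 2.4e-07) and 1.37-fold with Au_TCPP (log2 0.45, adjusted p = 0.00038), or 0.03 on the log2 scale with library totals alone. It was 1.80-fold lower with Au_TCPP than with Cu_TCPP (adjusted p = 9.4e-07).

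Tcof1 (ENSMUSG00000024613, mm10 chr18:60813755-60848971, minus strand) encodes treacle, a nucleolar partner of UBF that is mutated in Treacher Collins syndrome. It had 38.8, 29.8 and 45.9 CPM in Au_TCPP, 123, 135 and 125 in Cu_TCPP and 76.7, 70.5 and 73.9 in Control. The groups did not overlap and lay on opposite sides of Control. Tcof1 was 1.93-fold lower with Au_TCPP than in Control (log2 -0.95, SE 0.121, edgeR adjusted p = 6.2e-06) and 1.73-fold higher with Cu_TCPP (log2 0.79, SE 0.116, adjusted p = 0.00012). The direct difference, 3.34-fold lower with Au_TCPP than with Cu_TCPP (log2 -1.74, SE 0.122, adjusted p = 1.5e-08), was the widest of the 44 genes.

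Npm1 (ENSMUSG00000057113, mm10 chr11:33152287-33163206, minus strand) encodes nucleophosmin, an abundant nucleolar chaperone. It had 3029, 2782 and 3098 CPM in Au_TCPP, 1611, 1419.7 and 1556 in Cu_TCPP and 1461, 1443 and 1335 in Control. Cu_TCPP and Control overlapped and Au_TCPP stood above both. Npm1 rose 2.1-fold with Au_TCPP against Control (log2 1.07, SE 0.0862, edgeR adjusted p = 5.7e-08) and was 1.94-fold higher than with Cu_TCPP (adjusted p = 1.9e-07). With Cu_TCPP its log2 fold change was 0.11, with a 95% interval from -0.07 to 0.30 (adjusted p = 0.31).

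Ncl, nucleolin, had 1397, 1438 and 1643 CPM in Au_TCPP, 1261, 1185 and 1217 in Cu_TCPP and 922, 860.1 and 816 in Control. It rose 1.72-fold with Au_TCPP and 1.41-fold with Cu_TCPP (edgeR adjusted p = 1.9e-06 and 0.00054). It was 1.22-fold higher with Au_TCPP than with Cu_TCPP (adjusted p = 0.0098), which did not pass without Au_TCPP 3 or Cu_TCPP 2 (adjusted p = 0.097 and 0.075) and was -0.09 on the log2 scale with library totals alone. Ddx21, an RNA helicase of the nucleolus, was the member with the widest spread in Au_TCPP, with a coefficient of variation of 24.7%: 206, 171 and 276 CPM, against 357, 349.5 and 335 in Cu_TCPP and 191, 187 and 181 in Control. It rose 1.86-fold with Cu_TCPP (adjusted p = 0.00012). With Au_TCPP its log2 fold change was 0.22 (adjusted p = 0.15) and depended on single libraries. The value was 0.35 (adjusted p = 0.0024) without Au_TCPP 2 and -0.02 without Au_TCPP 3. With gene length removed Ddx21 was called higher with Au_TCPP, at 0.4 (adjusted p = 0.014). Npm3, a relative of nucleophosmin, rose 1.45-fold with Cu_TCPP (adjusted p = 0.00081) and 1.20-fold with Au_TCPP (adjusted p = 0.036), where the call was lost without any one of 6 of the libraries (adjusted p between 0.067 and 0.19) and with gene length removed (log2 -0.09, adjusted p = 0.49).

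The box C/D core rose in full in both comparisons against Control: 3 of 3 genes with Cu_TCPP and 3 of 3 with Au_TCPP, of which Fbl did not pass with library totals alone (log2 0.18, adjusted p = 0.057). Nop58 (ENSMUSG00000026020, mm10 chr1:59684971-59719044, plus strand) encodes a scaffold protein of these snoRNPs. It had 410.0, 329 and 505 CPM in Au_TCPP, 227, 193 and 199.9 in Cu_TCPP and 129, 121 and 110.2 in Control. The 3 groups did not overlap, and the Au_TCPP libraries were spread widely. Nop58 rose 3.45-fold with Au_TCPP (log2 1.79, SE 0.135, edgeR adjusted p = 3e-08), the largest rise among the members, and 1.72-fold with Cu_TCPP (log2 0.78, SE 0.132, adjusted p = 0.00035). It was 2.01-fold higher with Au_TCPP than with Cu_TCPP (adjusted p = 9.2e-06).

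Nop56, the second scaffold, had 356, 320.2 and 393 CPM in Au_TCPP, 308, 289.8 and 291 in Cu_TCPP and 171, 173 and 160.3 in Control. It rose 2.12-fold with Au_TCPP (log2 1.08, SE 0.0913, edgeR adjusted p = 9.3e-08) and 1.76-fold with Cu_TCPP (log2 0.82, SE 0.0909, adjusted p = 1.1e-05). The direct difference of 1.20-fold (adjusted p = 0.018) did not pass without any one of 8 of the libraries (adjusted p between 0.057 and 0.16), and was -0.11 on the log2 scale with library totals alone. Fbl, fibrillarin, the methyltransferase of the complex, rose 1.52-fold with Au_TCPP and 1.5-fold with Cu_TCPP (adjusted p = 2.1e-05 and 0.00011). Between the materials its log2 difference was 0.01, with a 95% interval from -0.17 to 0.19. Fbl was called lower with Au_TCPP than with Cu_TCPP under library totals alone, at -0.36 (adjusted p = 0.00083).

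The box H/ACA core also rose in full: 3 of 3 genes with Cu_TCPP and 3 of 3 with Au_TCPP, and 1 was lower with Au_TCPP than with Cu_TCPP. With library totals alone Dkc1 and Gar1 did not pass with Au_TCPP, at 0.09 and 0.16. Nhp2, a core protein of these snoRNPs and of telomerase, had 114, 153 and 115 CPM in Au_TCPP, 110.5, 155 and 112 in Cu_TCPP and 64.2, 68.0 and 63.3 in Control. In each treated group 1 library stood above the other two, and both groups lay above Control. Nhp2 rose 1.96-fold with Au_TCPP (log2 0.97, SE 0.139, edgeR adjusted p = 2.6e-05) and 1.93-fold with Cu_TCPP (log2 0.95, SE 0.139, adjusted p = 0.00013). Dkc1, dyskerin, the pseudouridine synthase, had 91.0, 75.8 and 88.5 CPM in Au_TCPP, 109.8, 107 and 107 in Cu_TCPP and 64.0, 56.1 and 58.4 in Control. It rose 1.43-fold with Au_TCPP and 1.81-fold with Cu_TCPP (adjusted p = 0.00011 and 6e-06), and was 1.27-fold lower with Au_TCPP than with Cu_TCPP (adjusted p = 0.003). Gar1, the third member, rose 1.49-fold with Au_TCPP and 1.59-fold with Cu_TCPP (adjusted p = 0.00015 and 0.00014).

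**Figure D3:**
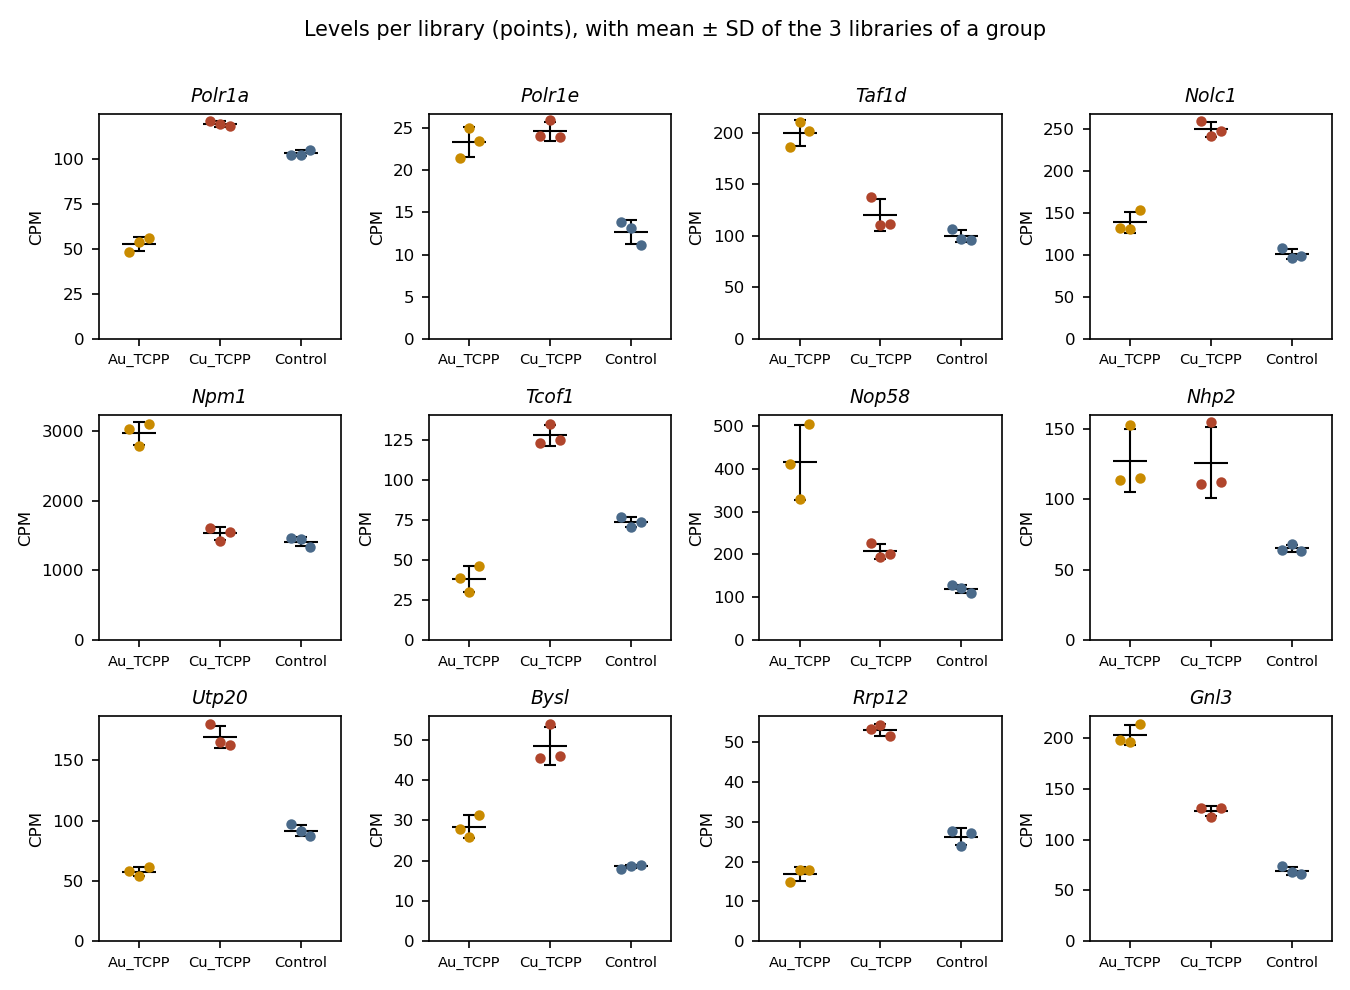
CPM (vertical axis, from 0) of 12 members in each library (points) by group, with the mean ± SD of the 3 libraries of a group. Polr1a, Tcof1, Utp20 and Rrp12 are lowest in Au_TCPP and highest in Cu_TCPP, while Npm1, Nop58 and Gnl3 are highest in Au_TCPP.

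Of the 12 factors of the small subunit, 10 rose with Cu_TCPP and 2 did not pass, with a median log2 fold change of 0.95. With Au_TCPP, 9 rose and 3 fell against Control, with a median of 0.40, where 34.4% and 34.7% of all genes were called. Compared with Cu_TCPP 1 was higher and 4 lower, where the shares were 34.6% and 31.3%. Bysl (ENSMUSG00000023988, mm10 chr17:47599331-47611492, minus strand) encodes bystin, needed for the maturation of the small subunit. It had 27.9, 25.8 and 31.4 CPM in Au_TCPP, 45.5, 54.0 and 45.9 in Cu_TCPP and 18, 18.7 and 18.9 in Control. Bysl showed the largest rise with Cu_TCPP among the members, 2.62-fold (log2 1.39, SE 0.104, edgeR adjusted p = 4.4e-07). Its rise with Au_TCPP was 1.53-fold (log2 0.62, adjusted p = 0.00012), or 0.19 on the log2 scale with library totals alone. Between the materials Bysl was 1.71-fold lower with Au_TCPP (adjusted p = 1e-05).

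Ltv1, which in yeast helps export the small subunit, had 28.5, 29.5 and 31.2 CPM in Au_TCPP, 27.4, 26.2 and 25.1 in Cu_TCPP and 13.2, 13.5 and 12.3 in Control. It rose 2.28-fold with Au_TCPP (log2 1.19, SE 0.0987, edgeR adjusted p = 7.7e-08) and 2.02-fold with Cu_TCPP (log2 1.01, adjusted p = 3.5e-06). Pno1, Wdr75 and Rrp9, factors of the same subunit, rose 2.08-, 2.17- and 1.92-fold with Au_TCPP and 2.11-, 1.83- and 2.01-fold with Cu_TCPP, with edgeR adjusted p of at most 2.8e-05. Between the materials none of these 4 genes passed on the main scale. With library totals alone Pno1 and Rrp9 were called lower with Au_TCPP, at -0.39 and -0.44 on the log2 scale (adjusted p = 0.0034 and 0.0022), and with gene length removed they were so at -0.38 and -0.25 (adjusted p = 0.001 and 0.024). Wdr75, at 0.24 (adjusted p = 0.054), was called higher with gene length removed and without Au_TCPP 2, at 0.31 in both (adjusted p = 0.016 and 0.0033).

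Utp20 (ENSMUSG00000004356, mm10 chr10:88746607-88826804, minus strand), Rrp12 and Heatr1 encode large scaffold proteins of early small-subunit particles. Utp20 had 57.9, 53.9 and 61.1 CPM in Au_TCPP, 180.2, 165 and 163 in Cu_TCPP and 96.9, 91.3 and 87.1 in Control. Rrp12 had 14.8, 17.9 and 17.8 CPM in Au_TCPP, 53.3, 54.4 and 51.6 in Cu_TCPP and 27.8, 23.8 and 27.1 in Control. Heatr1 had 34.7, 37.5 and 39.4 CPM in Au_TCPP, 101, 88.8 and 100.4 in Cu_TCPP and 47.3, 44.0 and 41.6 in Control. In each of these genes the 3 groups were separate, with Au_TCPP lowest and Cu_TCPP highest.

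Utp20 was 1.59-fold lower with Au_TCPP than in Control (log2 -0.67, SE 0.0845, edgeR adjusted p = 5.6e-06) and 1.85-fold higher with Cu_TCPP (log2 0.88, SE 0.0825, adjusted p = 2.7e-06). The direct difference was 2.94-fold lower with Au_TCPP (adjusted p = 1.4e-09). Rrp12 was 1.56-fold lower with Au_TCPP (log2 -0.64, SE 0.105, adjusted p = 7.6e-05) and 2.02-fold higher with Cu_TCPP (log2 1.02, SE 0.0985, adjusted p = 3.6e-06). The direct difference was 3.15-fold (adjusted p = 5.1e-09). Heatr1 rose 2.19-fold with Cu_TCPP (adjusted p = 5.8e-07). Its fall with Au_TCPP (log2 -0.25, adjusted p = 0.024) did not pass without Au_TCPP 1 or Control 1 (adjusted p = 0.058 and 0.062), nor with gene length removed, where it was 0.07.

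Nob1, the nuclease that makes the last cut of the small-subunit RNA, had 88.4, 79.4 and 97.8 CPM in Au_TCPP, 72.0, 79.3 and 70.0 in Cu_TCPP and 70.2, 73.4 and 70.3 in Control. It rose 1.24-fold with Au_TCPP (log2 0.31, edgeR adjusted p = 0.0063), not passed without Au_TCPP 3 or Control 1 (adjusted p = 0.056 and 0.051) and -0.11 on the log2 scale with library totals alone. With Cu_TCPP its log2 fold change was 0.05, with a 95% interval from -0.14 to 0.24. Nob1 was 1.20-fold higher with Au_TCPP than with Cu_TCPP (adjusted p = 0.018), which did not pass without any one of 7 of the libraries (adjusted p between 0.064 and 0.18). Utp15 and Wdr43, factors that join the transcript early, rose 1.31- and 1.33-fold with Au_TCPP and 1.48- and 1.47-fold with Cu_TCPP. Nop14 rose 1.26-fold with Au_TCPP (edgeR adjusted p = 0.0062). This rise did not pass without Au_TCPP 3 or with gene length removed (adjusted p = 0.057 and 0.058). With Cu_TCPP the log2 fold change of Nop14 was 0.20 (adjusted p = 0.11). That value passed in the fit of the 6 libraries concerned and with gene length removed (adjusted p = 0.0054 and 0.026).

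Of the 13 large-subunit factors tested, 11 rose with Cu_TCPP and 2 did not pass, with a median log2 fold change of 0.71. Against Control 9 rose with Au_TCPP, 2 fell and 2 did not pass, the median being 0.44, where 34.4% and 34.7% of all genes were called. Compared with Cu_TCPP 4 were higher and 6 lower, where the shares were 34.6% and 31.3%. Gnl3 (ENSMUSG00000042354, mm10 chr14:31012433-31019152, minus strand) encodes nucleostemin, a nucleolar GTPase of proliferating and stem cells. It had 198, 196 and 214 CPM in Au_TCPP, 131, 122 and 131 in Cu_TCPP and 73.5, 68.1 and 65.7 in Control. The groups did not overlap, with Au_TCPP highest. Gnl3 rose 2.94-fold with Au_TCPP (log2 1.55, SE 0.0829, edgeR adjusted p = 1.1e-09) and 1.85-fold with Cu_TCPP (log2 0.89, SE 0.0819, adjusted p = 2.4e-06).

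Gnl2, a related GTPase, had 147, 116 and 168 CPM in Au_TCPP, 90.7, 80.2 and 80.2 in Cu_TCPP and 64.4, 72.3 and 66.7 in Control. It rose 2.12-fold with Au_TCPP (log2 1.08, SE 0.117, edgeR adjusted p = 1.2e-06) and was 1.71-fold higher than with Cu_TCPP (adjusted p = 3.3e-05). With Cu_TCPP the log2 fold change was 0.30 and lay at the threshold, with an adjusted p of 0.051, and 0.0014 in the fit of the 6 libraries concerned. Rrs1, which helps to place a small rRNA into the large subunit, had 41.5, 43.5 and 42.7 CPM in Au_TCPP, 67.4, 77.4 and 68.9 in Cu_TCPP and 31.3, 34.5 and 34.0 in Control. It rose 2.14-fold with Cu_TCPP (log2 1.10, SE 0.0857, adjusted p = 5.7e-07) and 1.28-fold with Au_TCPP (log2 0.35, adjusted p = 0.0023). The Au_TCPP value of Rrs1 was -0.07 with library totals alone and 0.15 with gene length removed, and passed in neither. Rrs1 was 1.68-fold lower with Au_TCPP than with Cu_TCPP (adjusted p = 2.4e-06).

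Rrp1b, a nucleolar protein of large-subunit particles, had 36.2, 42.7 and 36.0 CPM in Au_TCPP, 90.2, 81.4 and 79.3 in Cu_TCPP and 58.3, 59.8 and 56.6 in Control. It was 1.52-fold lower with Au_TCPP (log2 -0.60, SE 0.0912, edgeR adjusted p = 3.4e-05) and 1.44-fold higher with Cu_TCPP (log2 0.52, SE 0.0881, adjusted p = 0.00035). The fall with Au_TCPP was -0.29 on the log2 scale with gene length removed (adjusted p = 0.012) and -1.02 with library totals alone (adjusted p = 1e-06). The direct difference was 2.18-fold lower with Au_TCPP (adjusted p = 6.4e-08). Noc2l and Noc3l are large-subunit factors whose yeast relatives act together. Noc2l fell by 0.42 on the log2 scale with Au_TCPP (adjusted p = 0.001), and Noc3l rose by 0.69 (adjusted p = 3.9e-05). With Cu_TCPP the log2 values were 0.21 for Noc2l (adjusted p = 0.086, and 0.0029 in a fit of the Cu_TCPP and Control libraries alone) and 0.84 for Noc3l (adjusted p = 3e-05).

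Bop1, Pes1 and Wdr12 form the PeBoW complex of the large subunit. Bop1 had 62.4, 50.8 and 68.8 CPM in Au_TCPP, 97.6, 106 and 103 in Cu_TCPP and 53.0, 54.1 and 54.3 in Control. With Cu_TCPP all members of the complex rose, Bop1 by 1.90-fold, Pes1 by 1.26-fold and Wdr12 by 1.47-fold (edgeR adjusted p = 8.2e-06, 0.0033 and 0.00085). With Au_TCPP, Wdr12 rose 1.34-fold (adjusted p = 0.0026), while Bop1 and Pes1 had log2 fold changes of 0.17 and 0.15 and did not pass; without Au_TCPP 2 the value of Bop1 was 0.26 (adjusted p = 0.0052). On the scale of library totals alone Bop1 and Pes1 were called lower, at -0.26 and -0.27 on the log2 scale, and Wdr12 did not pass (adjusted p = 0.98). Nop2, an rRNA methyltransferase, rose 2.07-fold with Cu_TCPP and 1.35-fold with Au_TCPP, and was 1.53-fold lower with Au_TCPP than with Cu_TCPP (adjusted p = 0.00028). Nop16, Mrto4 and Ebna1bp2, other factors of the large subunit, rose 1.91-, 2.09- and 1.77-fold with Au_TCPP and 1.99-, 1.64- and 1.40-fold with Cu_TCPP, with adjusted p of at most 0.00023. Mrto4 and Ebna1bp2 were also higher with Au_TCPP than with Cu_TCPP, by 0.35 and 0.34 on the log2 scale (adjusted p = 0.0015 and 0.0012), against -0.02 and -0.03 with library totals alone.

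Per length, the levels of the members spanned a wide range. Npm1 stood highest, at 1088 ± 68.1 FPKM in Au_TCPP, 577 ± 37.4 in Cu_TCPP and 520.5 ± 22.8 in Control (SD, n = 3 each). Ncl followed at 143 ± 13.1, 121 ± 3.75 and 83.4 ± 4.72 FPKM in the same order of groups. Polr1e had 5.85 ± 0.404 FPKM in Au_TCPP, 6.35 ± 0.278 in Cu_TCPP and 3.20 ± 0.348 in Control, the lowest Control level of the genes tested. The catalytic subunit Polr1a stood at 4.33 ± 0.324 FPKM in Au_TCPP, 10.1 ± 0.164 in Cu_TCPP and 8.52 ± 0.154 in Control. The libraries of a group differed little in these genes: the median coefficient of variation of the members was 9.07% in Au_TCPP, 6.30% in Cu_TCPP and 4.56% in Control, where over all genes tested it was 14.4%, 8.60% and 6.18%.

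Gene length moved with the Au_TCPP differences over all genes. Over all genes tested, the Spearman correlation of the log2 fold change with gene length was -0.30 with Au_TCPP against Control, -0.30 against Cu_TCPP and -0.01 with Cu_TCPP against Control. Over the 44 members it was -0.21, -0.19 and -0.09, as a description across genes that share the same libraries. The mean length of the gene behind a count was 4549, 4602 and 4669 nt in the Au_TCPP libraries, 5720, 5601 and 5629 in Cu_TCPP and 5754, 5678 and 5632 in Control. The members had a median length of 3937 nt against 3861 nt over all genes tested. With each library's trend on length removed, the median log2 fold change of the members was 0.58 with Au_TCPP against Control, -0.30 against Cu_TCPP and 0.87 with Cu_TCPP against Control, where all genes stood at 0.04, 0.00 and 0.08. Polr1a, at 11871 nt among the longest members, then stood at -0.51, Tcof1 at -0.77, Utp20 at -0.26, Rrp12 at -0.54 and Rrp1b at -0.29 with Au_TCPP against Control. Nop58, listed at 10758 nt, stood at 2.22, so that members listed as long lay at both ends. These lengths are those of the deposited table and need not be the length of the message. Gnl3, for example, is listed at 6101 nt, nearly its whole span in the genome. The values with length removed rest on the same listed lengths. Against Cu_TCPP, with length removed, Gar1, Nhp2, Wdr43, Rrp9, Pno1 and Nop16 became called lower, between -0.45 and -0.25, and Wdr75 and Wdr12 called higher, at 0.31 and 0.25, while Ubtf, Nob1 and Mrto4 no longer passed. The part of length in these differences was not tested beyond these values.

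**Figure D4:**
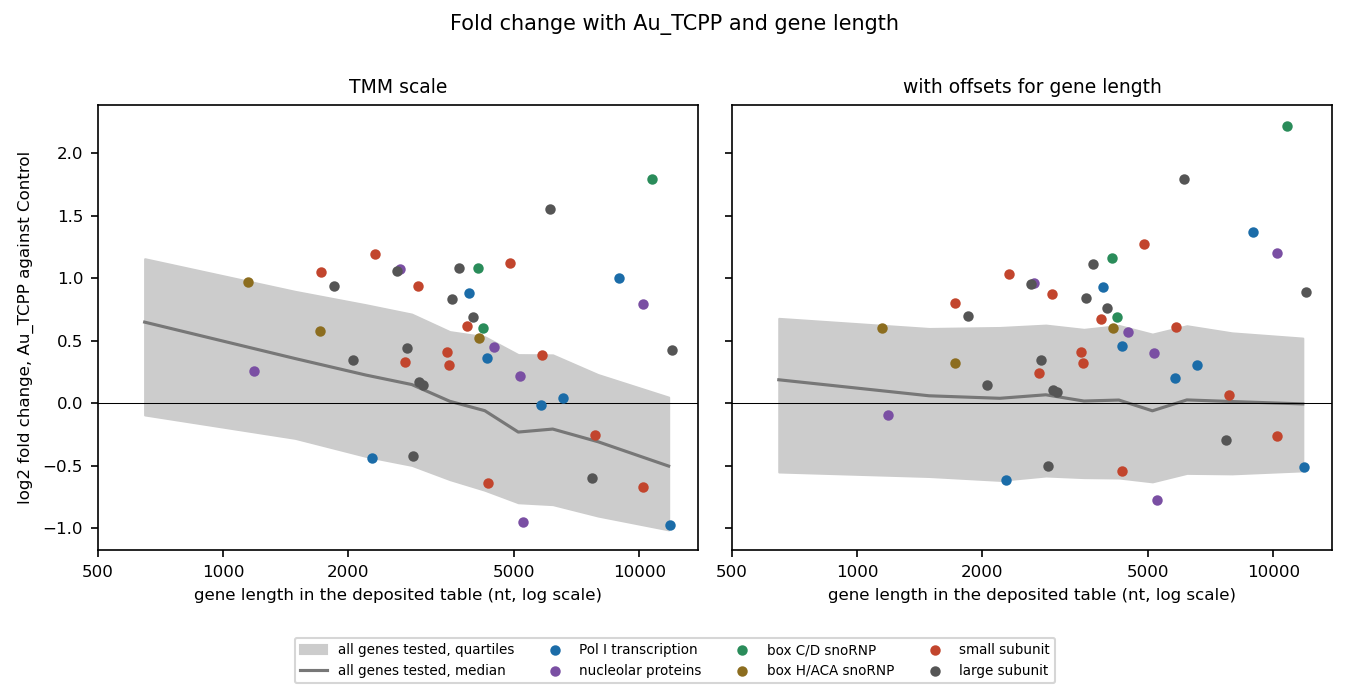
Log2 fold change with Au_TCPP against Control (vertical axis) and gene length in nt on a log axis (horizontal) for the 44 members (points, by role), with the median (line) and quartiles (band) of all genes tested, on the main scale (left) and with the trend on length removed (right). On the left the line falls with length and most members lie above it; on the right it is nearly flat and Nop58, at 2.22, is the highest member.

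Some members carry snoRNA genes in their introns, and this split was made after the values were seen. In the deposited annotation, 7 members span at least 1 snoRNA row: Taf1d, Ncl, Nop56, Nop58, Dkc1, Wdr43 and Gnl3. Their median log2 fold change with Au_TCPP was 1.00 against Control and 0.29 against Cu_TCPP, where the other 37 members had 0.39 and -0.18. With Cu_TCPP against Control the medians were 0.78 and 0.79. The 260 other genes tested that span a snoRNA row had a median of 0.29 with Au_TCPP against Control, 0.15 against Cu_TCPP and 0.11 with Cu_TCPP against Control. Dkc1 and Wdr43 did not share the pattern between the materials, with log2 differences of -0.34 and -0.14.

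Of 13 listed host genes of snoRNAs that are mostly noncoding, such as the Snhg genes, Gas5 and Zfas1, 11 were tested. With Au_TCPP 9 rose and 0 fell against Control, with a median log2 fold change of 1.46, where 34.4% and 34.7% of all genes were called. Against Cu_TCPP 9 were higher and 1 lower, with a median of 1.49, where the shares were 34.6% and 31.3%. With Cu_TCPP 7 did not pass, 3 rose and 1 fell, and the median was 0.10, where 19.2% of all genes were called higher and 21.2% lower. Snhg12 had 107, 106 and 128 CPM in Au_TCPP, 17.2, 19.5 and 18.2 in Cu_TCPP and 16.6, 16.7 and 16.5 in Control. It rose 6.84-fold with Au_TCPP (log2 2.77, SE 0.10, edgeR adjusted p = 3.3e-11) and had a log2 fold change of 0.14 with Cu_TCPP (adjusted p = 0.28). Snhg4 went the other way between the materials, with 10.9, 23.9 and 12.9 CPM in Au_TCPP against 38.8, 35.0 and 33.8 in Cu_TCPP (log2 fold change -1.17, adjusted p = 0.00046).

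Beyond the 45 genes, 108 other genes of the pathway were tested, without the snoRNA hosts. With Cu_TCPP 85 rose and 1 fell, while 22 did not pass, with a median log2 fold change of 0.48, where 19.2% of all genes were called higher and 21.2% lower. Ppan, a large-subunit factor, had the smallest p among those that rose, at 115, 127 and 112 CPM in Cu_TCPP against 59.1, 53.1 and 55.0 in Control (2.12-fold, edgeR adjusted p = 8.1e-07). The fallen gene was Nop53, with a log2 fold change of -0.26 (adjusted p = 0.049). With Au_TCPP 64 rose and 12 fell, while 32 did not pass, against Control, with a median of 0.33, where 34.4% and 34.7% of all genes were called. Against Cu_TCPP 35 were higher, 39 lower and 34 not passed, with a median of -0.06, where 34.6% and 31.3% of all genes were called, so that these shares lay near the background.

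Sbds, which frees the large subunit for translation and is mutated in Shwachman-Diamond syndrome, had 216, 189 and 226 CPM in Au_TCPP, 49.3, 49.6 and 51.1 in Cu_TCPP and 43.6, 45.8 and 43.2 in Control. Its rise of 4.75-fold with Au_TCPP (log2 2.25, SE 0.0868, edgeR adjusted p = 6e-11) was larger than that of any of the 44 members. Pelp1, of a complex that processes large-subunit RNA, had 35.8, 32.8 and 37.6 CPM in Au_TCPP, 109, 122 and 112 in Cu_TCPP and 77.3, 76.7 and 80.4 in Control, and was 2.21-fold lower with Au_TCPP than in Control (adjusted p = 2.2e-08). Of the 8 other Pol I genes, 5 rose and 3 fell with Au_TCPP, and 5 rose and 0 fell with Cu_TCPP. Polr1d, shared with Pol III, rose 2.49-fold with Au_TCPP and 1.42-fold with Cu_TCPP (adjusted p = 3.4e-09 and 0.00018). Cd3eap, a Pol I subunit also named Polr1g, was 1.71-fold lower with Au_TCPP than in Control and 1.61-fold higher with Cu_TCPP (adjusted p = 0.00017 and 0.0007). The subunits outside the set also differed in direction with Au_TCPP, where 34.4% of all genes were called higher and 34.7% lower.

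In the counts by list that follow, the shares over all genes stay 19.2% higher and 21.2% lower with Cu_TCPP and 34.4% higher and 34.7% lower with Au_TCPP against Control. Of the 40 other small-subunit genes, 33 rose and 0 fell with Cu_TCPP, and 23 rose and 3 fell with Au_TCPP. Utp4 rose 2.91-fold with Au_TCPP and 1.70-fold with Cu_TCPP (edgeR adjusted p = 1.6e-08 and 7.7e-05). Nol6 was 1.99-fold lower with Au_TCPP than in Control (adjusted p = 9e-08) and 1.21-fold higher with Cu_TCPP (adjusted p = 0.013). Of the 41 other large-subunit genes, 30 rose and 1 fell with Cu_TCPP, and 26 rose and 6 fell with Au_TCPP. The 12 genes tested of the exosome, which trims rRNA, and its partners gave 10 rises and 0 falls with Cu_TCPP and 6 rises and 0 falls with Au_TCPP. The 7 other snoRNP genes gave 7 rises with Cu_TCPP and 4 with Au_TCPP, and none fell.

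Myc, the transcription factor known to drive many genes of the pathway, had 278, 299.9 and 288 CPM in Au_TCPP, 308, 294 and 305 in Cu_TCPP and 261, 251 and 256 in Control. It rose 1.18-fold with Cu_TCPP (log2 0.24, SE 0.0777, edgeR adjusted p = 0.023) and had a log2 fold change of 0.17 with Au_TCPP (adjusted p = 0.061). The log2 difference between the materials was -0.07 (adjusted p = 0.46). Mycl, a relative of Myc, stood low, at 3.06, 2.77 and 2.92 CPM in Au_TCPP, 1.19, 2.18 and 1.69 in Cu_TCPP and 2.67, 2.54 and 3.07 in Control. It fell by 0.70 on the log2 scale with Cu_TCPP (adjusted p = 0.04), had a log2 fold change of 0.08 with Au_TCPP (adjusted p = 0.79), and was higher by 0.78 with Au_TCPP than with Cu_TCPP (adjusted p = 0.016). Mycn was too low to test.

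The authors' deposited table, which holds a test of their own, listed 41 of 44 members higher and 0 lower with Cu_TCPP. The median log2 fold change was 0.80, where 14.4% and 13.6% of the 23439 genes with an adjusted p were higher and lower. With Au_TCPP against Control the authors' deposited table had 30 of 45 members higher and 8 lower, with a median of 0.44. Here 19.2% and 19.1% of 23646 such genes were called. Against Cu_TCPP the authors' deposited table had 7 higher and 19 lower, with a median of -0.20, where 17.8% were called in each direction.

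The sources used here do not give the strand setting of the counting, so reads of overlapping genes on opposite strands may be shared. Among the members this holds for Polr1e with Fbxo10, Taf1d with Cep295 and 4931406C07Rik, Nop56 with Idh3b, Dkc1 with Mpp1, Nhp2 with Rmnd5b, Heatr1 with Lgals8, Rrp9 with Parp3, Bysl with Ccnd3, Pno1 with Wdr92, Bop1 with Mroh1 and Scx, Wdr12 with Carf and Gnl3 with Pbrm1. In Dkc1, Heatr1, Bysl, Bop1 and Gnl3 the neighbour held more reads than the member, such as 13166 for Mroh1 against 10899 for Bop1. The protein-coding neighbours of Pes1, Gnl2 and Noc2l held 4, 20 and 70 reads in all. Processed pseudogenes exist in the annotation for Npm1, Npm3, Fbl, Nop56 and Mrto4, so their counts are less certain.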

How the data were processed

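Per the labels, an Illumina HiSeq2000 read polyadenylated RNA of 9 libraries, which were grouped by title. The submitters' processing notes name mm10, Bowtie 0.12.9, Cufflinks 2.1.1 and HTSeq without roles. Per the file headers, the authors deposited raw read counts per gene. Deposited FPKM, which the authors scaled by gene length and library, served for levels across genes. The authors also deposited, per the file headers, log2 fold changes and raw and adjusted p-values; their test is not stated.

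The counts went into edgeR 4.0.16 under R 4.3.3, with TMM scaling, the filterByExpr filter and robust quasi-likelihood F tests on group means over all 9 libraries. P-values were adjusted by Benjamini-Hochberg across 13915 genes, and "rose" or "fell" stands for an adjusted p under 0.05. The biological coefficient of variation was 10.6%. The settings tried were RLE scaling, library totals, no low-count filter, at least 1 CPM in 3 or more libraries, DESeq2 1.42.0, fits of 6 libraries, a block for replicate number, a minimum log2 change of 1, limma 3.58.1 on log2 FPKM plus 1 or 0.1, spline offsets for gene length with 5 degrees of freedom, protein-coding genes only, and each library left out. Python 3.11.15 with pandas 2.3.3 and matplotlib 3.10.9 made tables and figures.

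The members, the other gene lists and the rule for genes given in full (per role and comparison, the called member with the largest rise and the one with the largest fall) were chosen with earlier results of these data known. Other members are named for their role or place in the range, and other pathway genes by the smallest p in their list. Replicates differed beyond sampling noise, with a chi-square per degree of freedom of 2.59 to 37.92.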

Additional observations from a re-analysis of the deposited data

How the results depend on the processing

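Leaving out 1 library at a time gave 28 to 33 members risen and 7 to 8 fallen with Au_TCPP against Control, 7 to 12 higher and 18 to 24 lower with Au_TCPP than with Cu_TCPP, and 35 to 41 risen and 0 fallen with Cu_TCPP against Control. The other alternatives gave 30 to 31 and 7 to 8, 7 to 11 and 18 to 24, and 36 to 41 and 0 in the same order, apart from a scale by library totals alone and a fold threshold. With library totals alone 17 members rose with Au_TCPP against Control, and 5 were higher and 31 lower than with Cu_TCPP. Single values turned there. With Au_TCPP against Control, Rrn3 stood at -0.06, Npm3 at -0.16, Nop14 at -0.09, Utp15 at -0.04, Wdr43 at -0.02, Nob1 at -0.11, Wdr12 at 0.00 and Rrs1 at -0.07, no longer called, and Ubtf at -0.37, Bop1 at -0.26 and Pes1 at -0.27, called lower. Against Cu_TCPP, Ncl stood at -0.09, Nop56 and Nob1 at -0.11 each, Mrto4 at -0.02 and Ebna1bp2 at -0.03, no longer called, and Fbl at -0.36 and Nop14 at -0.25, called lower. The cause was not tested. Asking for a log2 fold change of at least 1 left 9 risen and 0 fallen with Au_TCPP against Control, 1 higher and 6 lower against Cu_TCPP, and 9 risen with Cu_TCPP. With offsets for gene length, Npm3 turned to -0.09 and Heatr1 to 0.07 with Au_TCPP against Control, and Nhp2 to -0.43 and Wdr12 to 0.25 against Cu_TCPP.

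No pairing by replicate number was seen: same-numbered libraries had correlations of their deviations between -0.085 and 0.09. Whether they were paired by design is not stated. A replicate block gave 31 risen and 8 fallen with Au_TCPP against Control, 11 higher and 18 lower against Cu_TCPP, and 36 risen and 0 fallen with Cu_TCPP against Control. Under it Polr1a and Taf1d did not pass with Cu_TCPP (adjusted p = 0.057 and 0.056), nor Pes1 between the materials (0.063), where Wdr75 passed (0.044).

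The members tested stand at 11.1 CPM or more in every library, and the precision of each value is limited by the 3 libraries per group.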
